A study of Mus musculus with 9 samples.

Results

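The CCAAT/enhancer binding proteins (C/EBPs) measured here were Cebpa, Cebpb, Cebpd and Cebpg, chosen by gene symbol in the probe annotation. They are 4 of the 18193 genes represented on the arrays, and 8 of the 45037 probe sets tested name them alone. Cebpa had 1 probe set, Cebpb and Cebpd had 2 each and Cebpg had 3. Each gene is described by its brightest probe set, and the remaining 4 probe sets are given as a check.

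C/EBPs are basic leucine zipper transcription factors that bind DNA as dimers with each other or with related zipper proteins. In mouse 3T3-L1 fibroblasts, a cell line that a hormone cocktail turns into fat cells, Cebpb and Cebpd are known as early factors, induced within hours of that cocktail. They switch on Cebpa and Pparg, which encodes the nuclear receptor PPAR gamma, and those 2 factors then maintain each other's expression in the mature fat cell. Cebpg lacks a transactivation domain of its own and acts through its dimer partners.

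The arrays came from 3T3-L1 adipocytes electroporated with siRNA against PPAR gamma, from 3T3-L1 adipocytes given a control siRNA with no target by the same electroporation, and from 3T3-L1 preadipocytes, 3 arrays each. Both adipocyte groups had been induced with 0.5 mM IBMX, 1 µM dexamethasone and 10 µg/ml insulin, then were detached and transfected with 2 or 3 nmol of siRNA 14 days after induction. The labels do not say which arrays had which amount, and the harvest time after transfection was not used here. The series calls the replicates technical, so p-values set a difference against the spread between these samples only. They do not cover variation between independent experiments, and the number of arrays limits the precision. Transfection is described for adipocytes alone, so in any comparison with preadipocytes it cannot be told apart from differentiation. At least 95% of cells are said to take on the adipocyte shape, and the bulk RNA includes the rest.

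Values are on the log2 scale. Array medians lay between 4.82 and 4.89. A control probe set, BioB, was compared too. It lay at 7.95 to 8.49 with PPAR gamma siRNA, 8.44 to 8.73 with control siRNA and 7.08 to 7.60 in preadipocytes. Its preadipocyte values were thus below those of both adipocyte groups, and the cause was not tested. The 4 adipocyte markers measured averaged 11.60 to 11.74 over the PPAR gamma siRNA arrays, 13.94 to 14.01 over the control siRNA arrays and 6.18 to 6.29 over the preadipocyte arrays. Macrophage markers (6 genes) averaged 4.76 to 4.88 with PPAR gamma siRNA, 4.47 to 4.53 with control siRNA and 4.32 to 4.42 in preadipocytes. Endothelial markers (5 genes) averaged 3.91 to 4.21 with PPAR gamma siRNA, 3.92 to 4.05 with control siRNA and 3.72 to 3.88 in preadipocytes. The macrophage gene Adgre1 averaged 3.67 with PPAR gamma siRNA, 3.85 with control siRNA and 3.42 in preadipocytes, and Csf1r averaged 6.06 with PPAR gamma siRNA, 6.15 with control siRNA and 6.05 in preadipocytes. Cd14 was at 8.46 with PPAR gamma siRNA, 6.68 with control siRNA and 6.57 in preadipocytes. The Actb 3' minus 5' difference, which reflects RNA integrity, was 0.79 ± 0.40 with PPAR gamma siRNA, 1.04 ± 0.22 with control siRNA and 0.30 ± 0.06 in preadipocytes (SD, n = 3 each). Pparg, the siRNA target, stood at 9.54, 9.58 and 9.64 with PPAR gamma siRNA, at 12.89, 12.82 and 12.65 with control siRNA and at 8.35, 8.20 and 8.12 in preadipocytes. The PPAR gamma siRNA arrays thus lay below every control siRNA array and above every preadipocyte array (PPAR gamma siRNA minus control siRNA -3.20 ± 0.09, SE, adjusted p = 1.27e-09).

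The proximal promoters are shown as sequence background, and sequence further from the starts was not searched. RefSeq on GRCm38.p6 gave the 250 bases before the annotated start of 3 members, while Cebpd is named only. Capitals mark matches to the motifs searched. These were the C/EBP core TTGCG and its palindromic form TTGCGCAA, which contains that core, the core TGACG of a cAMP response element, the CCAAT box, and the TATAA element on the gene strand. A further motif was the direct repeat bound by PPAR gamma with its partner RXR, a pair of AGGTCA elements 1 base apart. All but TATAA were searched on both strands.
Cebpa, chr7:35119043-35119292, plus strand: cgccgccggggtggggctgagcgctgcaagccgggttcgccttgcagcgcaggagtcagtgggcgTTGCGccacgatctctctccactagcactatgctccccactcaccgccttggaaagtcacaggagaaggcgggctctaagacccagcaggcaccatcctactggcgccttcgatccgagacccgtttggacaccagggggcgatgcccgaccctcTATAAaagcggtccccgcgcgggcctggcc
Cebpb, chr2:167688665-167688914, plus strand: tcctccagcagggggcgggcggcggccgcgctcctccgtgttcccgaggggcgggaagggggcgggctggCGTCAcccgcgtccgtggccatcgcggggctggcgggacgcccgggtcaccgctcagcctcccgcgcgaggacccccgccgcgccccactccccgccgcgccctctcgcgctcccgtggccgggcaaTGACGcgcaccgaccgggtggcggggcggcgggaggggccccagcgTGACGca
Cebpg, chr7:35056567-35056816, minus strand: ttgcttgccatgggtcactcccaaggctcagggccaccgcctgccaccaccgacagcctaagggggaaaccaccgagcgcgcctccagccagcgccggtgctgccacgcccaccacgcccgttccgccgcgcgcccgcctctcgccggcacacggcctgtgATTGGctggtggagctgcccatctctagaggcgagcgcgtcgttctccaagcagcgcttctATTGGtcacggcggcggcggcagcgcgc

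The Cebpa stretch held 1 TTGCG match, 185 to 181 bases before the start, and a TATAA match 30 to 26 bases before it. The Cebpa promoter is known for a C/EBP site through which family members act on the gene. Of 32851 mouse promoter stretches of the same length, 14.5% held the C/EBP core and 16% held the TATAA element. The Cebpb stretch held 3 TGACG matches, beginning 180, 53 and 7 bases before the start, the first on the opposite strand, and 17.8% of all stretches held at least 1. Cebpb is known to be induced through the factor CREB, which binds such elements. The Cebpg stretch held 2 CCAAT matches, both on the opposite strand, 89 to 85 and 28 to 24 bases before the start, and 33.8% of all stretches held one. None of the 3 stretches held TTGCGCAA or the direct repeat, found in 0.164% and 0.0335% of all stretches. A match is a run of letters, and binding was not measured.

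Cebpa and Cebpg are neighbours on chromosome 7. Their starts lie 62.7 kb apart on opposite strands, with 1 gene annotated wholly between them, the long noncoding RNA Gm35611. Cebpb is on chromosome 2 and Cebpd on chromosome 16.

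PPAR gamma siRNA moved all 4 genes relative to control siRNA, and not in 1 direction. Cebpd rose 4.84-fold, Cebpa fell 5.19-fold, Cebpg fell 2.01-fold and Cebpb fell 1.37-fold. Depletion of the receptor in mature fat cells was the question of this comparison. With 1 member called higher and 3 lower, the background was 19.9% of all genes called higher and 16.1% called lower. In bulk RNA, fewer cells that express a gene and less RNA per cell cannot be told apart. Markers of preadipocytes and fibroblasts moved in the same comparison: all 6 measured (Dlk1, Pdgfra, Thy1, Vim, Col1a1 and Fn1) rose with PPAR gamma siRNA, with a median difference of 1.52. Their mean level was 11.16 to 11.77 in the PPAR gamma siRNA arrays, 9.68 to 10.07 in the control siRNA arrays and 12.39 to 12.56 in the preadipocyte arrays. Fn1 departed from that order, at 12.72 with PPAR gamma siRNA, 11.35 with control siRNA and 11.45 in preadipocytes. Whether preadipocytes or fibroblasts contributed to the Cebpd rise or the falls of the other members was not tested.

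**Figure D1:**
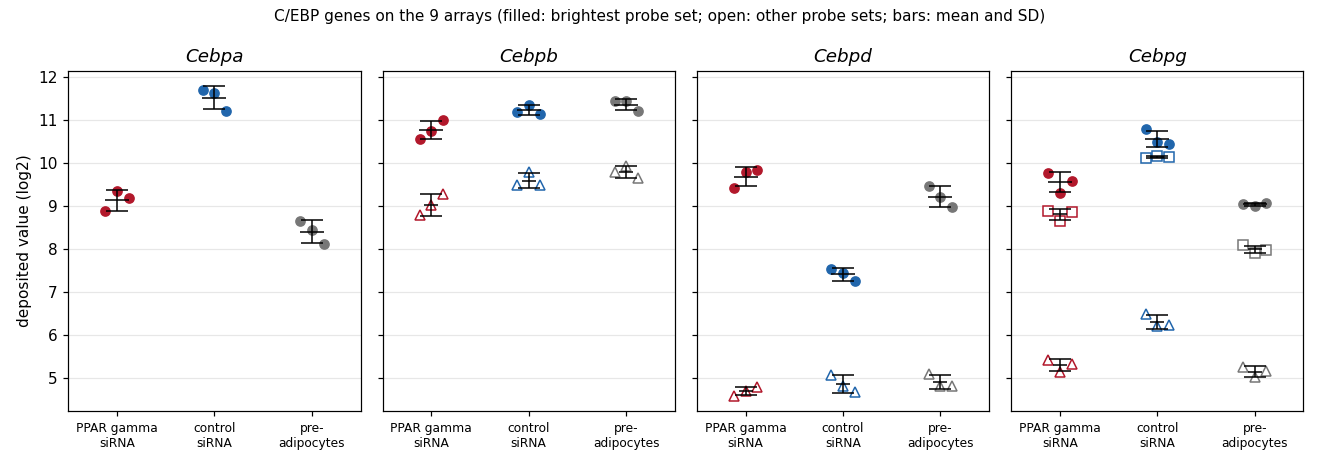
Deposited log2 values of the 4 C/EBP genes on each array, with PPAR gamma siRNA adipocytes on the left, control siRNA adipocytes in the middle and preadipocytes on the right of each panel. Filled points are the brightest probe set, open points the other probe sets, and bars the mean and SD of 3 arrays. By the filled points, Cebpa is highest and Cebpd lowest in control siRNA adipocytes.

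Of the early factors, Cebpd was the member that rose. It stood at 9.42, 9.77 and 9.84 in the PPAR gamma siRNA arrays, against 7.53, 7.43 and 7.25 in the control siRNA arrays. The groups lay well apart, with the lowest PPAR gamma siRNA array 1.89 above the highest control siRNA array. The difference was 2.27 ± 0.14 (SE, 95% interval 1.96 to 2.59, adjusted p = 2.93e-07), and 111 of the 18193 genes rose by more.

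Cebpb, the other early factor, had the smallest estimated difference. Its values were 10.55, 10.74 and 10.98 with PPAR gamma siRNA, against 11.18, 11.34 and 11.12 with control siRNA. All 3 PPAR gamma siRNA arrays were lower, by a narrow margin. The difference was -0.46 ± 0.12 (SE, 95% interval -0.72 to -0.19, adjusted p = 0.0132). Its call ended without control siRNA replicate 2 (-0.39, adjusted p = 0.0572) or without PPAR gamma siRNA replicate 1 (-0.35, adjusted p = 0.0519). The other Cebpb probe set gave -0.56 ± 0.14 (adjusted p = 0.00856). These probe sets report the transcript, and the activating and inhibitory proteins that are translated from it cannot be told apart here.

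Cebpa, the late factor that holds the fat cell programme together with PPAR gamma, had the largest estimated fall. Its values were 8.87, 9.35 and 9.17 with PPAR gamma siRNA, against 11.69, 11.63 and 11.20 with control siRNA. The lowest control siRNA array stood 1.85 above the highest PPAR gamma siRNA array. The difference was -2.37 ± 0.17 (SE, 95% interval -2.75 to -2.0, adjusted p = 8.20e-07), and 103 of the 18193 genes fell by more.

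Cebpg, the partner subunit, fell on every one of its probe sets. The brightest stood at 9.76, 9.31 and 9.58 with PPAR gamma siRNA, against 10.77, 10.47 and 10.43 with control siRNA. No array of either group reached the other. The difference was -1.01 ± 0.13 (SE, adjusted p = 6.57e-05), and the other probe sets gave -1.33 ± 0.09 (adjusted p = 4.89e-07) and -1.0 ± 0.11 (adjusted p = 2.69e-05). The siRNA groups were without overlap for all 4 genes and for 44.4% of the 18193.

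**Figure D2:**
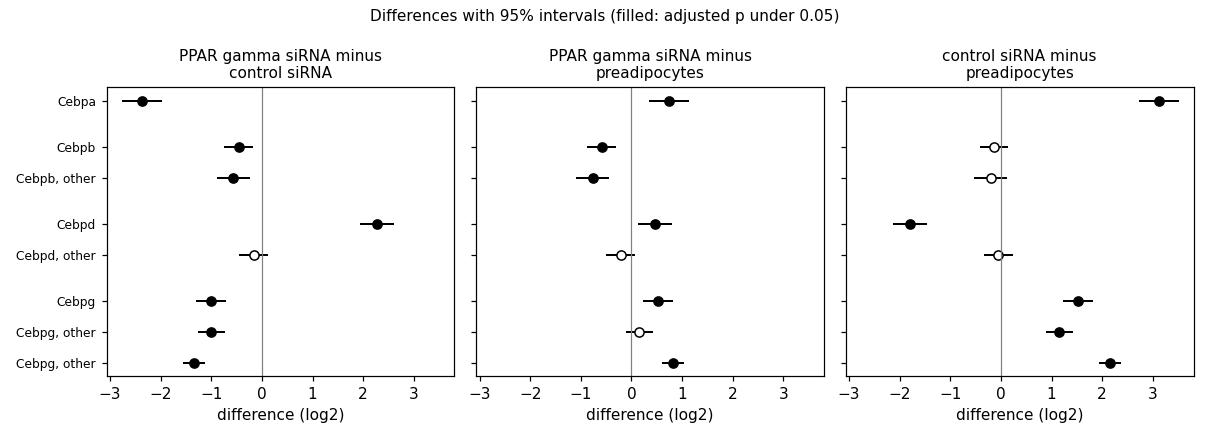
Log2 differences between groups with 95% intervals for the 8 C/EBP probe sets; filled points have an adjusted p under 0.05. The Cebpa and Cebpg probe sets lie left of zero for PPAR gamma siRNA minus control siRNA and right of zero for control siRNA minus preadipocytes, and the brightest Cebpd probe set lies on the opposite sides.

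In the comparison that marks the differentiated state, control siRNA adipocytes against preadipocytes, the late factor and the partner subunit were higher, Cebpd was lower, and Cebpb did not pass the test. The arrays were without overlap for 3 of the 4 members and for 61.5% of the 18193 genes. Of all genes, 27.1% were called higher and 24.7% lower. Of the 6 preadipocyte and fibroblast markers, 5 were lower in control siRNA adipocytes and Fn1 did not pass (median -3.28). Cebpa stood at 11.69, 11.63 and 11.20 in control siRNA adipocytes, against 8.64, 8.43 and 8.11 in preadipocytes. It was 8.67-fold higher (3.12 ± 0.17, SE, adjusted p = 2.78e-08), with 220 genes rising by more.

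Cebpg stood at 10.77, 10.47 and 10.43 in control siRNA adipocytes, against 9.04, 9.0 and 9.06 in preadipocytes. It was 2.88-fold higher (1.53 ± 0.13, SE, adjusted p = 9.10e-07), and its other probe sets gave 2.15 ± 0.09 and 1.15 ± 0.11. The 3 probe sets shared the direction but not the size.

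Cebpd stood at 7.53, 7.43 and 7.25 in control siRNA adipocytes, against 9.46, 9.20 and 8.97 in preadipocytes. It was 3.49-fold lower (-1.80 ± 0.14, SE, adjusted p = 7.31e-07), and every preadipocyte array exceeded every control siRNA array. Cebpb stood at 11.18, 11.34 and 11.12 in control siRNA adipocytes, against 11.42, 11.43 and 11.20 in preadipocytes. The groups overlapped, and the difference of -0.13 had a 95% interval of -0.40 to 0.13 (adjusted p = 0.392). Its other probe set gave -0.20 ± 0.14 (adjusted p = 0.266).

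The second Cebpd probe set did not share these differences. It lay between 4.59 and 5.08 in all adipocyte arrays and between 4.81 and 5.10 in preadipocytes, close to the array medians. It gave -0.16 ± 0.12 for PPAR gamma siRNA minus control siRNA (adjusted p = 0.400) and -0.05 ± 0.12 for control siRNA minus preadipocytes (adjusted p = 0.768). The Cebpd results therefore rest on 1 probe set.

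The direct comparison of PPAR gamma siRNA adipocytes with preadipocytes shows where each gene ended up. Cebpa, Cebpg and Cebpd were called above preadipocytes and Cebpb below them, with 19.6% of all genes called higher and 16.9% lower. The Cebpd call rests on its brightest probe set alone and ended in several of the alternative runs. The arrays of the groups were without overlap for 3 of the 4 members and for 49.8% of all genes.

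Cebpa, at 8.87, 9.35 and 9.17 with PPAR gamma siRNA against 8.64, 8.43 and 8.11 in preadipocytes, was 0.74 ± 0.17 higher (SE, adjusted p = 0.00607), with no overlap. Cebpg, at 9.76, 9.31 and 9.58 with PPAR gamma siRNA against 9.04, 9.0 and 9.06 in preadipocytes, was 0.52 ± 0.13 higher (SE, adjusted p = 0.00795). Of its other probe sets, 1 gave 0.81 ± 0.09 (adjusted p = 3.00e-05) and 1 gave 0.16 ± 0.11 (adjusted p = 0.336). Both genes thus lay between the preadipocyte and the control siRNA arrays on their brightest probe sets.

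Cebpb was the member whose PPAR gamma siRNA arrays lay outside the range of both other groups on the low side. It stood at 10.55, 10.74 and 10.98 with PPAR gamma siRNA, against 11.42, 11.43 and 11.20 in preadipocytes, a difference of -0.59 ± 0.12 (SE, adjusted p = 0.00263). The other Cebpb probe set gave -0.76 ± 0.14 (adjusted p = 0.00116). Cebpb kept this call under each alternative run, with an adjusted p of at most 0.0155.

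Cebpd, at 9.42, 9.77 and 9.84 with PPAR gamma siRNA against 9.46, 9.20 and 8.97 in preadipocytes, overlapped in 1 array of each group. Its difference of 0.47 ± 0.14 (SE, adjusted p = 0.0284) had the highest adjusted p of the 4. The other Cebpd probe set gave -0.21 ± 0.12 (adjusted p = 0.229), and the mean of both probe sets gave 0.13 ± 0.12 (adjusted p = 0.438). The call ended without preadipocyte replicate 2 (adjusted p = 0.0798) or 3 (adjusted p = 0.118), or without PPAR gamma siRNA replicate 2 (adjusted p = 0.0924) or 3 (adjusted p = 0.0945). With the Actb 3' minus 5' difference as a covariate, the calls on Cebpa (0.66, adjusted p = 0.0634), Cebpd (0.33, adjusted p = 0.251) and Cebpg (0.39, adjusted p = 0.115) also ended. That covariate ran from 0.54 to 1.25 with PPAR gamma siRNA and from 0.23 to 0.36 in preadipocytes. As these ranges do not overlap, the adjusted differences rest on a slope fitted within groups and extended between them. The part of RNA integrity in the differences was not tested.

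The order of the groups therefore differed from gene to gene. Cebpa and Cebpg were highest with control siRNA, intermediate with PPAR gamma siRNA and lowest in preadipocytes. Cebpd was lowest with control siRNA, and its other groups overlapped. Cebpb was lowest with PPAR gamma siRNA, and its other groups did not differ beyond their spread. After each gene was centred on its own mean, the root mean square difference over the 9 arrays was 0.72 between Cebpb and Cebpg and 0.75 between Cebpa and Cebpg. It was 1.13 between Cebpb and Cebpd, 1.34 between Cebpa and Cebpb, 1.58 between Cebpd and Cebpg and 2.26 between Cebpa and Cebpd. The measure takes in the size of a gene's changes as well as their direction.

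The genes whose pattern over the 9 arrays was most like each member's are a description, and the arrays share their group structure, which is most of what a pattern holds. For Cebpa they were Pdhx of the pyruvate dehydrogenase complex, the carnitine acetyltransferase gene Crat, the matrix protein gene Npnt, the presenilin gene Psen2 and Gnpat of ether lipid synthesis, with root mean square differences of 0.18 to 0.24. With PPAR gamma siRNA these 5 genes differed from control siRNA by -2.28 to -1.99. For Cebpg they were Lhpp, Zfp267, Xpnpep3, Qsox2 and BC003965, at 0.098 to 0.11.

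For Cebpd they were Antxr2, which encodes an anthrax toxin receptor, Mxra8, the chemokine gene Ccl9, the thyroid hormone receptor gene Thra and Mkrn1, whose probe set is of a type that may match other genes, at 0.15 to 0.18. These 5 differed between PPAR gamma siRNA and control siRNA by 2.06 to 2.60. For Cebpb they were Afap1, the tRNA exporter gene Xpot, Taf6l, Ppp1r3d and the lamin B receptor gene Lbr, at 0.095 to 0.11.

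**Figure D3:**
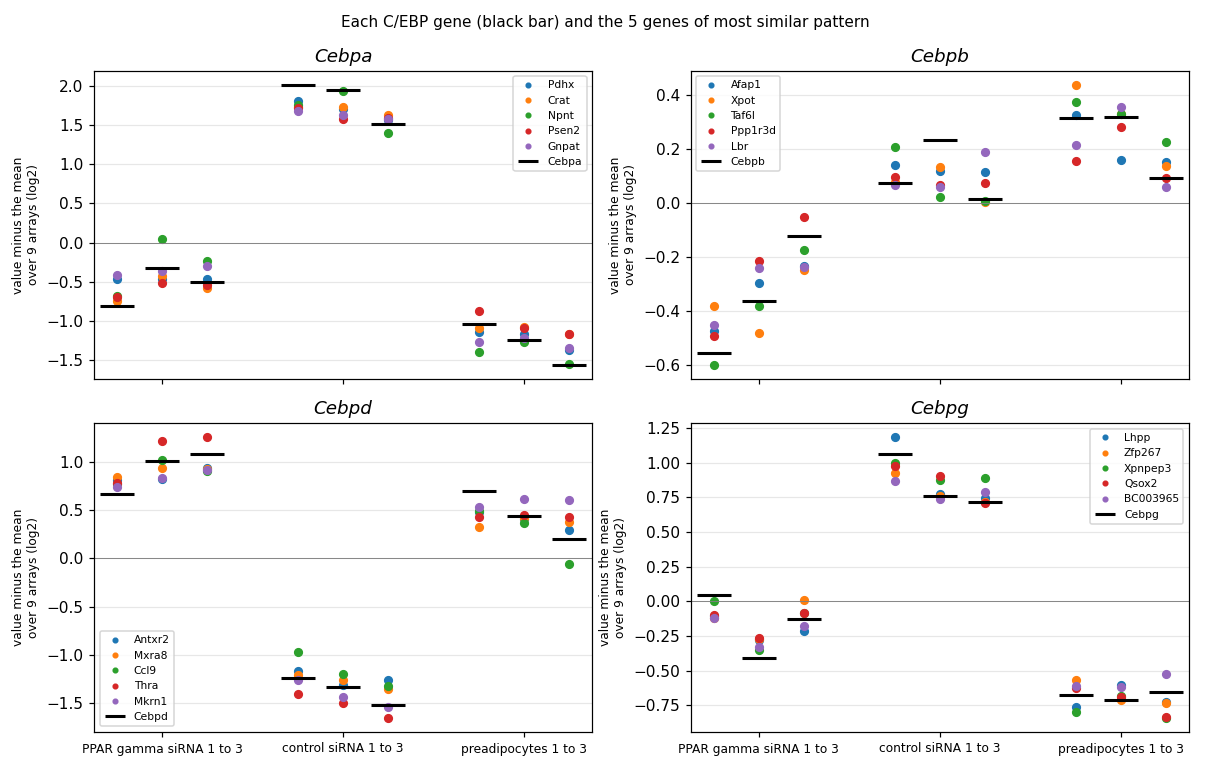
Values of each C/EBP gene (black bars) and of its 5 most similar genes (coloured points), each minus its own mean over the 9 arrays, in log2 units, with the PPAR gamma siRNA arrays on the left, control siRNA in the middle and preadipocytes on the right. The vertical axes differ between panels: the Cebpb panel spans about 1 log2 unit, and the genes around Cebpa and Cebpd are separated by group.

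The other family member measured was Ddit3, which encodes CHOP, a stress-induced C/EBP that forms dimers with the others and blocks their binding to usual sites. It stood at 11.24, 10.41 and 10.71 with PPAR gamma siRNA, against 10.04, 10.20 and 10.13 with control siRNA. All 3 PPAR gamma siRNA arrays were higher (0.66 ± 0.17, SE, adjusted p = 0.00987), while their spread was the wider. Its other probe set gave 0.15 ± 0.25 (adjusted p = 0.731). Control siRNA adipocytes minus preadipocytes gave -0.39 ± 0.17 (adjusted p = 0.0764).

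Genes that act upstream of the C/EBPs or modify them changed in both directions with PPAR gamma siRNA. Of 25 measured, 9 were called higher, 3 lower and 13 neither, with a median of 0.18 against -0.0088 for all genes, of which 19.9% were higher and 16.1% lower. The largest rises were those of the corepressor gene Ctbp2, at 8.66 ± 0.13 under PPAR gamma siRNA and 7.51 ± 0.08 under control siRNA (SD, n = 3 each), of the signal transducer gene Stat5b (0.88 ± 0.09) and of Crebbp, which encodes the coactivator CBP (0.56 ± 0.09). The falls were those of Klf15, at 9.88 ± 0.17 under PPAR gamma siRNA and 11.35 ± 0.15 under control siRNA, of Stat5a (-0.49 ± 0.09) and of Celf1 (-0.47 ± 0.10), which encodes an RNA-binding protein.

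The zinc finger gene Klf15, raised in fat cell differentiation, exceeded its preadipocyte level by 7.35 ± 0.13 with control siRNA and by 5.87 ± 0.13 with PPAR gamma siRNA. Gata2, a factor known to bind C/EBPs and hold back differentiation, gave 0.06 ± 0.19 for PPAR gamma siRNA minus control siRNA (adjusted p = 0.871). It was lower than in preadipocytes in both adipocyte groups, at -3.25 ± 0.19 with PPAR gamma siRNA (adjusted p = 1.46e-07) and -3.30 ± 0.19 with control siRNA (adjusted p = 3.41e-08). For control siRNA adipocytes minus preadipocytes, 5 of the 25 were higher and 13 lower, beside 27.1% higher and 24.7% lower of all genes. The median was -0.34, against 0.088 for all genes.

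Among zipper proteins that can pair with C/EBPs or are related to them, 4 of 20 rose with PPAR gamma siRNA, 2 fell and 14 were not called (median 0.089), shares near or below the 19.9% and 16.1% of all genes. Fos stood at 9.44 ± 0.43 under PPAR gamma siRNA and 7.71 ± 0.15 under control siRNA (SD, n = 3 each). Junb stood at 8.13 ± 0.40 under PPAR gamma siRNA and 6.72 ± 0.20 under control siRNA, and Fosl2 at 9.25 ± 0.07 under PPAR gamma siRNA and 8.20 ± 0.10 under control siRNA. The other AP-1 genes Jun (0.08), Fosb (0.11) and Jund (0.32) did not pass. The falls were those of Fosl1 (-0.62 ± 0.13) and Nfil3 (-0.59 ± 0.14). Atf4, a stress-response partner of Cebpg, gave 0.10 (adjusted p = 0.547).

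Adipocyte genes linked to C/EBPs, by sites in their promoters or by dependence on the factors, fell with PPAR gamma siRNA in 10 of 12 cases and none rose, with a median of -1.45, where 16.1% of all genes fell. Several of them are also direct PPAR gamma targets. All 12 were listed as adipocyte genes, so the share of all genes is not a matched background. The part of C/EBPs in the falls was not tested. Retn, the gene of the hormone resistin, stood at 7.46 ± 0.01 under PPAR gamma siRNA and 12.59 ± 0.10 under control siRNA, and Pck1, of glycerol synthesis, at 3.78 ± 0.18 under PPAR gamma siRNA and 8.31 ± 0.41 under control siRNA (SD, n = 3 each). The other named fall was that of Pparg. As the siRNA target its fall was set by the design, and it is counted among the 12, the 10 and the median. Set against preadipocytes, 11 of the 12 were higher with PPAR gamma siRNA, beside 19.6% of all genes. With control siRNA 11 were higher, beside 27.1% of all genes.

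Acute-phase and inflammatory genes, on many of which Cebpb and Cebpd are known to act, split. Of 16 measured, 6 rose with PPAR gamma siRNA, 3 fell and 7 were not called (median 0.024), beside 19.9% higher and 16.1% lower of all genes. The orosomucoid gene Orm3 rose (SD, n = 3 each; 6.80 ± 0.19 under PPAR gamma siRNA and 5.14 ± 0.09 under control siRNA), as did the cytokine gene Il6 (5.38 ± 0.36 under PPAR gamma siRNA and 3.94 ± 0.27 under control siRNA) and the chemokine gene Ccl2 (8.51 ± 0.01 under PPAR gamma siRNA and 7.11 ± 0.37 under control siRNA). Haptoglobin, Hp, fell (8.66 ± 0.02 under PPAR gamma siRNA and 13.03 ± 0.04 under control siRNA), as did Orm1 (-1.29 ± 0.10) and Orm2 (-0.51 ± 0.14). In preadipocytes Orm3 stood at 4.87, Il6 at 3.99 and Ccl2 at 9.64, so Ccl2 stayed below its preadipocyte level with PPAR gamma siRNA. With control siRNA Il6 lay below the array medians and Orm3 lay close to them. Orosomucoid genes are near-identical copies, and their probe sets may share transcripts. Cd14, among the macrophage markers, rose by 1.78 ± 0.10 beside these genes while the other 5 markers of that list did not pass, and the part of other cells in the result was not tested.

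Stress response genes linked to Atf4 and Cebpg also split, with 7 of 20 higher, 6 lower and 7 not called (median -0.031), beside 19.9% higher and 16.1% lower of all genes. The amino acid transporter gene Slc7a5 (1.89 ± 0.20), Aldh18a1 of proline synthesis (1.74 ± 0.13) and the alanine transaminase gene Gpt2 (1.16 ± 0.19) rose. Genes of serine and cysteine synthesis fell, namely Phgdh, at 9.06 ± 0.21 under PPAR gamma siRNA and 10.92 ± 0.11 under control siRNA, Cth (-0.83 ± 0.13) and Psat1 (-0.83 ± 0.10). The probe sets of Aldh18a1, Gpt2 and Phgdh are of types that may match other genes, as are those of Pck1 and Dlk1 above. In control siRNA adipocytes against preadipocytes 10 of the 20 were higher and 6 lower, beside 27.1% higher and 24.7% lower of all genes.

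**Figure D4:**
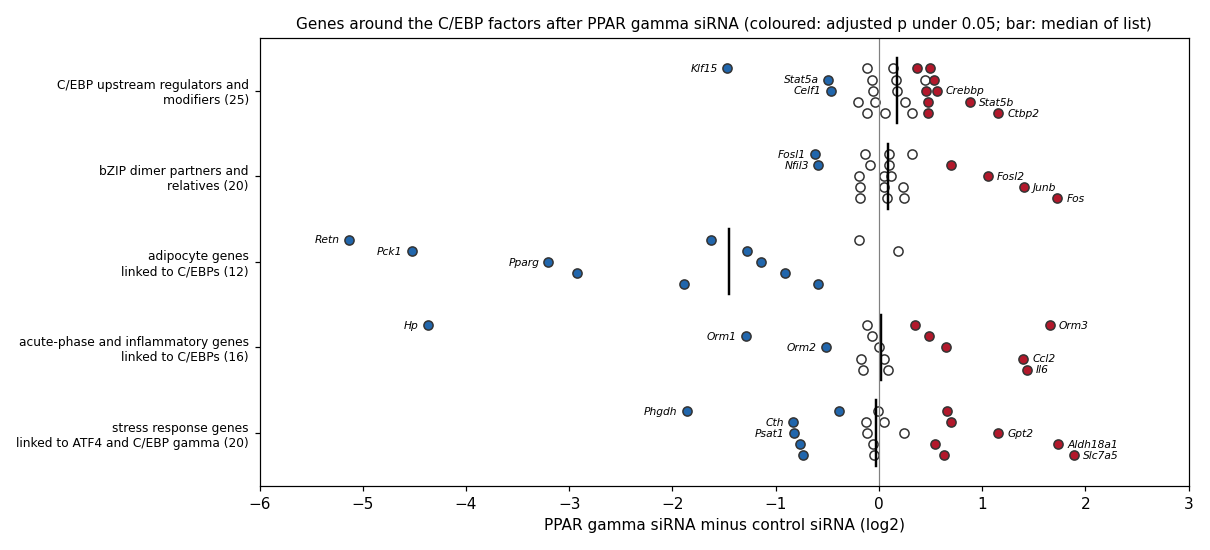
PPAR gamma siRNA minus control siRNA, in log2 units, for every measured gene of 5 lists (number of genes in brackets); red points rose and blue points fell at an adjusted p under 0.05, open points did not pass, and the bar is the median of the list. The adipocyte genes lie mostly to the left, with a median of -1.45 and a highest value of 0.19, and the other lists hold both red and blue points.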

How the data were processed

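Total RNA of 9 samples was measured, 1 single-colour array each, in 3 groups of 3 taken from the sample titles. The deposited values are the authors' log2 probe set summaries. No source used here states the scale, which was read from the range of 2.41 to 14.59, or the normalisation between arrays, which was read from their nearly equal medians. The submitters' processing notes name MAS5, RMA and affy 1.16.0 without a role, and no source used here gives the background correction.

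No further scaling was applied. The 64 control probe sets were left out and the other 45037 were tested with limma 3.58.1 in R 4.3.3, in 1 linear model holding 3 group means. Tests were two-sided with Benjamini-Hochberg adjustment across all 45037, and called genes had an adjusted p under 0.05. The fit was checked on simulated data. A gene was represented by its brightest probe set on average over the 9 arrays, among the 34945 with a single symbol, which gave 18193 genes. Probe set symbols came from the platform annotation. No genome build is given for the array values, and the promoter sequences are those of RefSeq on GRCm38.p6.

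The members and the gene lists were chosen with earlier results of these data known. All 4 members were described. From each list of related genes, up to 3 of the largest called rises and 3 of the largest called falls with PPAR gamma siRNA were named. Gata2, Atf4, Jun, Fosb, Jund and cell type markers were named besides, with their values known. Names that were not found in the annotation as a single symbol were not analysed here. Genes of similar pattern were the 5 with the smallest root mean square difference from a member over the 9 arrays, each gene centred on its own mean.

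Alternatives were renewed quantile normalisation, median centring, omission of probe sets with a mean under 5, a replicate block, a fit without the third group, robust variances with an intensity trend, the Actb 3' minus 5' difference as a covariate, the mean of all probe sets, the other probe sets of a gene, omission of x and s probe sets, and omission of each array. Deviations of same-numbered arrays from their group means correlated between -0.18 and 0.13 across genes over 9 pairs, so the replicate numbers were not taken to pair the arrays.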

Additional observations from a re-analysis of the deposited data

How the results depend on the processing

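For the 12 member results (4 genes in 3 comparisons), 214 of 228 settings run kept the direction and the side of the threshold. Many of these settings left the estimate itself unchanged, so its direction could not turn in them. They were the replicate block, the robust variances, the fit without the third group, and omission of dim or of x and s probe sets. Omission of an array outside the comparison also left it unchanged, as did the mean of all probe sets for Cebpa, which has 1. Counts of called genes stayed within 1.5 times those reported: 7242 to 10033 for control siRNA adipocytes minus preadipocytes, 5851 to 6763 for PPAR gamma siRNA minus control siRNA and 5374 to 7121 for PPAR gamma siRNA minus preadipocytes. A replicate block gave 9199 called genes for control siRNA adipocytes minus preadipocytes, 6314 for PPAR gamma siRNA minus control siRNA and 6356 for PPAR gamma siRNA minus preadipocytes, and changed no call on a member. The second Cebpd probe set, near the array medians, gave -0.049 for control siRNA adipocytes minus preadipocytes, and with the opposite sign -0.16 for PPAR gamma siRNA minus control siRNA and -0.21 for PPAR gamma siRNA minus preadipocytes. Averaging both Cebpd probe sets gave 0.13 in the last of these. With arrays left out in turn, Cebpb lay between -0.57 and -0.35 for PPAR gamma siRNA minus control siRNA, and Cebpd between 0.35 and 0.60 for PPAR gamma siRNA minus preadipocytes; each lost its call in some of these fits, which hold fewer arrays. With the Actb difference as a covariate, PPAR gamma siRNA minus preadipocytes was 0.66 for Cebpa, 0.33 for Cebpd and 0.39 for Cebpg, none called, and the cause was not tested. The dimmest Cebpg probe set gave 0.16 there, not called. Signal over background could not be judged, as the values carry no detection calls.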
